A study of Mus musculus with 180 samples.

Results

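BXD mouse lines were split by the haplotype they carry on chromosome 13, and embryonic stem cells (ESCs) and epiblast-like cells (EpiLCs) of the 2 groups were compared on all other chromosomes. BXD strains are inbred descendants of a cross between C57BL/6J (B6) and DBA/2J (D2), so each line holds B6 sequence at some loci and D2 sequence at others. Most of the 180 samples of the series belong to the 33 BXD lines, each with 1 library of RNA-seq and 1 of ATAC-seq in each of the 2 states. In ATAC-seq a transposase cuts where chromatin is open, so a higher signal means more accessible DNA. By a score selected on ESC ATAC signal in the interval from 60 to 70 Mb, 15 lines were D2-like (60 libraries) and 18 were B6-like (72 libraries). Per the labels, ESCs were grown under naive conditions and part of each line was carried on to the EpiLC state, a formative state on the way to the epiblast. The labels give neither age nor sex, no agent and no edited allele for any line, and whether a line is 1 clone is not given. The 3 D2 lines (D29, D55 and DAC203) and 3 B6 lines (B41, B44 and B51) entered only the choice of groups and descriptions, as did 3 B6D2F1/J hybrid lines.

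The interval from 60 to 70 Mb of mouse chromosome 13 lies in a part of the genome rich in genes for KRAB zinc finger proteins. These proteins bind DNA through arrays of zinc fingers, many of them within transposable elements, and recruit the co-repressor TRIM28, which brings histone and DNA methylation and keeps chromatin closed. Mouse LINE-1 elements, the most active transposons of the mouse germline, start with a promoter built of repeated units and go on with long open reading frames, and in pluripotent cells they are among the targets of such repression. Mouse strains differ in which zinc finger genes they carry in such clusters.

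The score of a line came from 87 of the 679 ESC ATAC regions in the interval, those with parental means more than 2 apart on the log2(value + 0.1) scale and no overlap between the D2 and B6 lines. The region just inside this threshold differed by 2.01, and the one just outside by 2.00. Of the 87 regions 75 were more open in D2 and 12 in B6, and 72 lay between 65 and 67 Mb. At each region a line was placed between the parental means, with the midpoint at 0, the D2 mean at 0.5 and the B6 mean at -0.5, and the score is the mean of these positions. The D2-like lines scored from 0.162 to 0.833 with a median of 0.741, and the B6-like lines from -0.451 to -0.113 with a median of -0.349. The D2 parental lines scored 0.470 to 0.552 and the B6 lines -0.542 to -0.465. These values chose the groups and are a description.

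**Figure D1:**
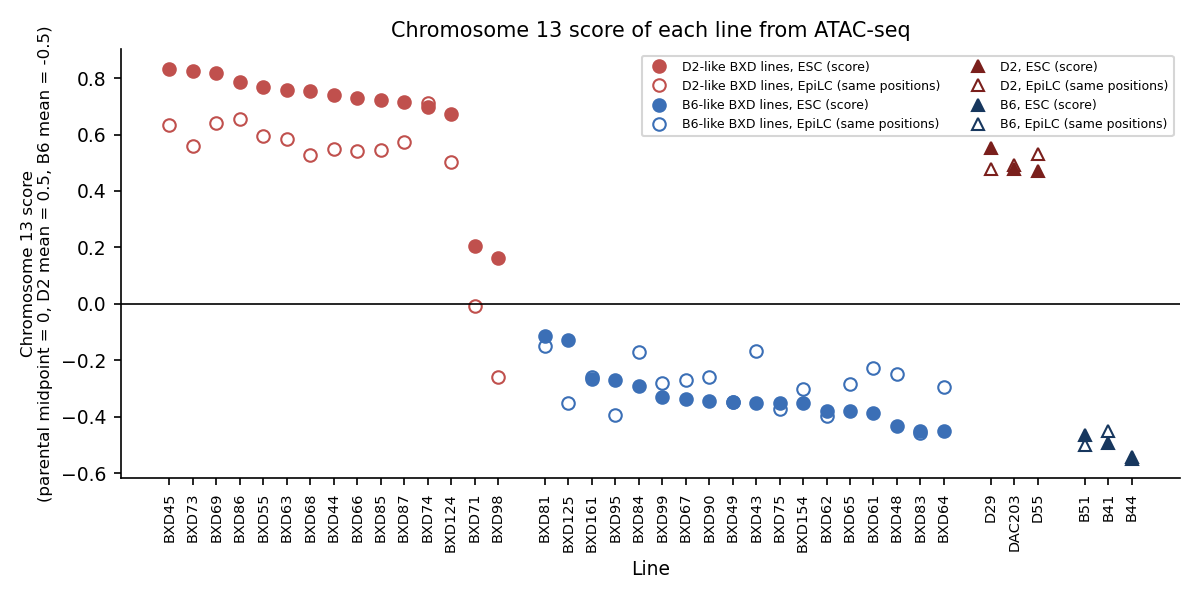
Chromosome 13 score of each line (y axis, parental midpoint at 0) from ESC ATAC-seq (filled) and from EpiLC ATAC-seq at the same positions (open), for D2-like lines, B6-like lines and the parental D2 and B6 lines. Apart from BXD71 and BXD98, at 0.206 and 0.162, the D2-like lines scored between 0.673 and 0.833 in ESCs.

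4 lines scored within 0.25 of the threshold of 0. BXD98 scored 0.162, with a mean of 0.248 over the regions more open in D2 but -0.377 over those more open in B6. BXD71 scored 0.206, with -0.445 over 4 regions between 64 and 66 Mb and 0.523 over 8 regions between 66 and 70 Mb that are more open in B6. In EpiLCs BXD98 scored -0.258 and BXD71 -0.009 at the 63 regions with the same positions, so that 31 of the 33 lines kept their side of 0. BXD125 at -0.129 and BXD81 at -0.113 kept theirs. The files used here hold no genotypes, so whether BXD98 and BXD71 carry both haplotypes within the interval was not tested, and both are given by name beside the results.

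The ATAC libraries of each line matched between the 2 states. From the median position in 122 bins of 10 Mb, every one of the 33 EpiLC ATAC libraries was closest to the ESC ATAC library of its own line, with a lowest r of 0.809, against a highest r of 0.627 with another line. All 33 RNA libraries of each state were also closest to their own line at the genes that follow local haplotype. Those genes were chosen on the same libraries and labels, which favours such a match. The lowest r with the own line was 0.641 in ESC RNA and 0.642 in EpiLC RNA. The highest r with another line was 0.573 and 0.663. Markers of the 2 states were read in every line, and not all of them separated the states. Pou5f1 RNA, of the core pluripotency factor, was 590.3 to 919 in D2-like and 639.7 to 894 in B6-like ESCs. Klf4 RNA, a naive marker, was 140 to 302 in D2-like and 107 to 344 in B6-like ESCs, and 0.896 to 14.6 in D2-like and 1.55 to 5.74 in B6-like EpiLCs. Fgf5, a formative marker, was 7.86 to 74.7 in D2-like and 6.64 to 54.6 in B6-like EpiLCs. The ATAC libraries held 8510000 to 18500000 recovered reads in ESCs and 2240000 to 15500000 in EpiLCs, where BXD69 was the shallowest. RNA values are normalized signals whose depth is unknown, and the 2 states were normalized in separate tables.

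Other properties of the lines differed between the groups. A raised median over a whole chromosome (11, 16 or 8) appeared in 6 lines, 0 of the 15 D2-like and 6 of the 18 B6-like. Not all of the 6 showed it in every assay and state. Fits without the lines with a chromosome gain left out only those that showed it in the data fitted. RNA of the Y-linked genes was low in 5 of 15 D2-like and 3 of 18 B6-like lines, and Xist RNA in EpiLCs was above that of every B6-like line in 6 D2-like lines. EpiLC ATAC library numbers in the labels fall into 3 runs, the lowest with 1 D2-like and 6 B6-like lines, the next with 7 D2-like and 3 B6-like lines and the highest with 7 and 9. Of 114 bins on other chromosomes 8 were carried from D2 in shares that differed by more than 40 percentage points, the most unequal being 100 to 110 Mb of chromosome 3 (10 of 15 D2-like and 0 of 18 B6-like lines), 50 to 60 Mb of chromosome 17 (12 of 15 and 3 of 18), 20 to 30 Mb of chromosome 1 (10 of 15 and 1 of 18) and 120 to 130 Mb of chromosome 2 (1 of 15 and 11 of 18). For this reason each result was also fitted with local haplotype as a covariate, taken from the nearest scored bin on the same chromosome. That bin can lie far from the feature, and the haplotype at the feature itself was then not fitted. The named genes that lost their call there are given below.

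Within the interval itself RNA and EpiLC chromatin differed as well. In ESC RNA 25 of 64 genes (39.1%) were called at an adjusted p under 0.05, 10 higher and 15 lower in D2-like lines, against 5.41% of genes on other chromosomes and 5.15% on chromosome 13 outside the interval. In EpiLC RNA 32 of 65 genes (49.2%) were called, 19 higher and 13 lower, against 17.5% on other chromosomes and 19.3% on chromosome 13 outside the interval. In EpiLC ATAC 351 of 642 regions (54.7%) were called, 293 of them more open in D2-like lines, against 5.89% and 7.58%. All p-values come from limma with Benjamini-Hochberg adjustment over the whole table. Each line is a separate strain with 1 library, so these p-values measure the spread between lines.

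The genes of the interval moved both ways. Zfp874a, a zinc finger gene, had 2.47, 5.50 and 29.5 (lowest, median and highest normalized signal) in D2-like ESCs, against 18.3, 27.4 and 37.8 in B6-like ESCs. All D2-like lines but BXD98, at 29.5, lay below every B6-like line, and the log2 difference was -2.05 ± 0.16 (SE, n = 15 and 18, limma adjusted p = 4.67e-11). Zfp493, Zfp729a and Zfp738, also zinc finger genes, fell by 0.96, 0.96 and 0.78 on the log2 scale, and Fancc, of the Fanconi anaemia DNA repair pathway, by 0.74. 2410141K09Rik had 90.7, 210.3 and 319 in D2-like against 26.6, 46.1 and 77.1 in B6-like ESCs, with no overlap and a log2 difference of 2.10. Gm10772 rose by 2.35 in ESCs and 2.66 in EpiLCs with no overlap in either state, Zfp640 by 1.13 and 1.87, and Adcy2, an adenylyl cyclase, by 1.96 in ESCs with no overlap. Of the other genes named here Gm10139, Gm10324, Gm26715 and Slc35d2 rose by 1.44, 1.12, 1.07 and 1.01 in ESCs, and Gm9625, Nlrp4f and Zfp459 fell by 1.53, 0.99 and 0.69. In EpiLCs Platr2 and Gm17514 rose by 1.47 and 1.14, and Ube2ql1, Gas1 and Zfp273 fell by 1.11, 0.77 and 0.67. Zinc finger genes in this cluster resemble each other closely, and the sources used here do not say how reads that match several copies were counted, so the level of a single copy is uncertain.

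Chromatin on the other chromosomes was less open at 1022 regions in D2-like ESCs by more than 2-fold, and 64.9% of these carried the same 12-base word. In ESC ATAC 15995 of 107079 regions (14.9%) were called, 9817 higher (9.17%) and 6178 lower (5.77%) in D2-like lines. That direction depended on scaling, with 6764 higher and 7747 lower after median-ratio scaling and 6518 higher and 7833 lower with edgeR's quasi-likelihood test on recovered reads. Beyond 2-fold most were lower: 1022 regions fell (0.954%) and 88 rose (0.0822%) in D2-like lines, against 1082 and 72 after median-ratio scaling and 1151 and 74 with edgeR. In EpiLC ATAC 5651 of 95880 regions (5.89%) were called, 3059 higher (3.19%) and 2592 lower (2.7%), with 305 (0.318%) lower and 33 (0.0344%) higher beyond 2-fold. The larger direction turned here too, with 2719 higher and 2802 lower after median-ratio scaling and 1531 higher and 1997 lower with the run of library numbers as a covariate. The counts of regions lower beyond 2-fold were 917 in ESCs and 290 in EpiLCs with local haplotype as a covariate, 1006 and 310 without the lines with a chromosome gain, and 1007 and 294 with Y-linked RNA as a covariate. The EpiLC count was 344 with the run of library numbers as a covariate. They were 434 and 64 with a pseudocount of 1, which shrinks differences of low values, and 103 and 33 among the regions with a mean of at least 5.

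The 12-base word with the largest excess in the regions that closed beyond 2-fold, CTGGTGAGTGGA on either strand (TCCACTCACCAG on the other), is called word 1 here. It was found among these regions, so its share there is a description. Stretches of the reference genome around it are shown so that the shared sequence can be read. They come from the regions with word 1 that had the largest falls in ESCs and in EpiLCs. The last is from the ESC region with word 1 closest to the start of a gene whose RNA fell. All are from the mm10 build (GRCm38, RefSeq), 5′ to 3′ on the strand given, with word 1 in capitals.
ESC region chr14:122776704-122776915, minus strand: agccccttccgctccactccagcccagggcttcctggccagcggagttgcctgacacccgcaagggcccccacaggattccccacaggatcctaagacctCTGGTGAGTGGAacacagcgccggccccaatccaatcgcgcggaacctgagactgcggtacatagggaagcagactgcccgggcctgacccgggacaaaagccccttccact
ESC region chr19:39249062-39249273, minus strand: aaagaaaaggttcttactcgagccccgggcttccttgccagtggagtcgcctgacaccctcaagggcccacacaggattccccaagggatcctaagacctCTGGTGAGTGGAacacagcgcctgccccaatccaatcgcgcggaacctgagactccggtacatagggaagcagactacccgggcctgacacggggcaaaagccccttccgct
ESC region chr4:106176981-106177192, plus strand: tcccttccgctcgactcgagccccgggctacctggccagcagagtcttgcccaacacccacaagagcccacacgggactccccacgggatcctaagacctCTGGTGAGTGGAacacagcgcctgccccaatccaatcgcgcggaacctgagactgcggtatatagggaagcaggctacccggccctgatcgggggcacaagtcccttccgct
ESC region chr5:145779905-145780116, plus strand: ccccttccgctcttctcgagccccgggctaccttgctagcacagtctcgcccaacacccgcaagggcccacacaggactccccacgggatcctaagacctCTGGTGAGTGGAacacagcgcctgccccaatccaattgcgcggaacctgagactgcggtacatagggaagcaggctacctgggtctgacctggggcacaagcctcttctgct
EpiLC region chr7:53136875-53137086, plus strand: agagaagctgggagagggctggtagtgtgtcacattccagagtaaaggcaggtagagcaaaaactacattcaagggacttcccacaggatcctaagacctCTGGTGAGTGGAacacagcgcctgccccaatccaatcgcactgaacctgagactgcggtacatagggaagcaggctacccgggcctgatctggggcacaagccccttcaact
EpiLC region chr14:120649283-120649494, minus strand: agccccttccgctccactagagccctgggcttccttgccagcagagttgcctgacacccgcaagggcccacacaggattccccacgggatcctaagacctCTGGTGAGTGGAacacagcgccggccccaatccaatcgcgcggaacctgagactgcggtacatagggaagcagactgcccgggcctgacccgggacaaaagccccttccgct
ESC region chr4:101054649-101054860, plus strand: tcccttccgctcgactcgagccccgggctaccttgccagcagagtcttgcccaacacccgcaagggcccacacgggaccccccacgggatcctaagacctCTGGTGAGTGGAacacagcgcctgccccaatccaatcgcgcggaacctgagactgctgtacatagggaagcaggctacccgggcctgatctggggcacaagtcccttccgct

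The 7 stretches matched each other, position by position, at 66.5% to 96.2% of their bases. In the first of these regions, inside the gene Pcca, the ATAC signal was 1.14, 1.77 and 12.3 (lowest, median and highest) in D2-like ESCs, against 11.3, 14.4 and 17.2 in B6-like ESCs, a log2 difference of -2.81 ± 0.18 (SE, limma adjusted p = 5e-14), and -1.57 with local haplotype as a covariate (limma adjusted p = 0.000549). All D2-like lines but BXD98, at 12.3, lay below every B6-like line. The region inside Cyp3a44, a cytochrome P450 gene, had 0.650, 1.25 and 5.54 in D2-like against 5.70, 9.65 and 17.3 in B6-like ESCs, and the groups did not overlap, BXD98 being the D2-like line at 5.54. Of the 10 regions with the largest falls, 8 carried word 1 in ESCs and 5 in EpiLCs. With local haplotype as a covariate 2 of these 10 in ESCs (on chromosomes 12 and 17) and 4 in EpiLCs (3 of them on chromosome 12) lost their call.

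Word 1 was present in 663 of the 1022 ESC regions that fell beyond 2-fold (64.9%), in 0 of the 88 that rose beyond 2-fold, and in 1084 of all 107079 regions (1.01%). In EpiLCs it was present in 235 of 305 (77.05%), 0 of 33 and 791 of 95880 regions (0.825%). Read the other way, of the 1084 ESC regions with word 1, 663 fell beyond 2-fold, 6 rose, 290 were not called and the others fell by less. Their median log2 difference was -1.26, against 0.04 for regions without it, and 1041 of them (96.0%) were below 0. These ESC values are a description too, since the word was chosen from the regions that fell. In EpiLCs 235 of the 791 regions fell beyond 2-fold, 205 by less, 7 rose and 344 were not called, with a median of -0.75.

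**Figure D2:**
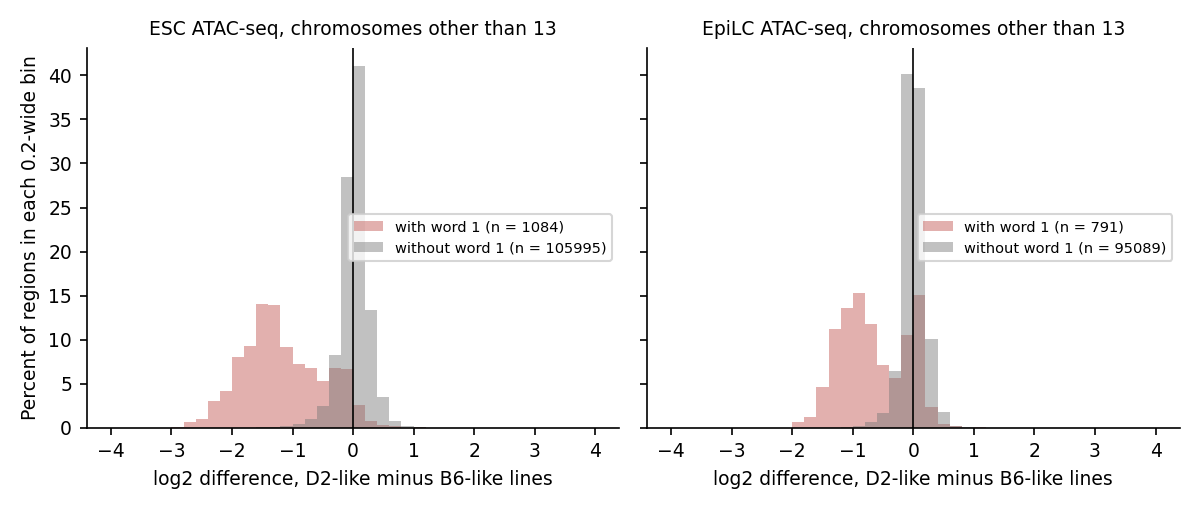
Percent of regions (y axis) by log2 difference in ATAC signal, D2-like minus B6-like lines (x axis, bins of 0.2), for regions of other chromosomes with word 1 and without it, in ESCs and EpiLCs. Regions with word 1 centre on -1.26 in ESCs and -0.75 in EpiLCs, those without it near 0.

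Repeat content and open reading frames were described around word 1. The median share of bases marked as repeat in the reference was 82.1% in regions that fell beyond 2-fold in ESCs, against 15.8% in all regions. With 1000 bases added on each side, 508 of the 663 ESC regions with word 1 that fell beyond 2-fold held more than 1 copy of it (76.6%). Over all 1084 ESC regions with word 1, copies were most often 208 bases apart (768 of 1555 spacings). An open reading frame of at least 500 codons was found within 8000 bases downstream on the strand of the word in 534 of the 663 (80.5%), against 16 upstream (2.41%). Among the 290 regions with word 1 that were not called, 48.6% had such a frame downstream and 46.6% had more than 1 copy. The files name no repeat family, and near-identical copies share reads, so the signal of a single copy is uncertain.

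By line, the split was nearly complete. Word 1 was chosen from ESC regions already called lower between these same groups, so the ESC split is a description and not a separate test. The median signal over the 1084 ESC regions with word 1 was 0.801, 1.00 and 2.67 (lowest, median and highest line) in D2-like lines, against 2.05, 2.77 and 5.42 in B6-like lines. All D2-like lines but BXD98, at 2.67, lay below every B6-like line, and BXD71, at 1.92, was the next highest. The parental lines were at 1.02 to 1.05 in D2 and 2.18 to 2.44 in B6. In EpiLCs the D2-like lines were at 1.37, 1.85 and 3.08 and the B6-like lines at 2.72, 3.55 and 4.99, and 13 of 15 D2-like lines lay below every B6-like line, the exceptions being BXD71 at 3.08 and BXD98 at 2.92.

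**Figure D3:**
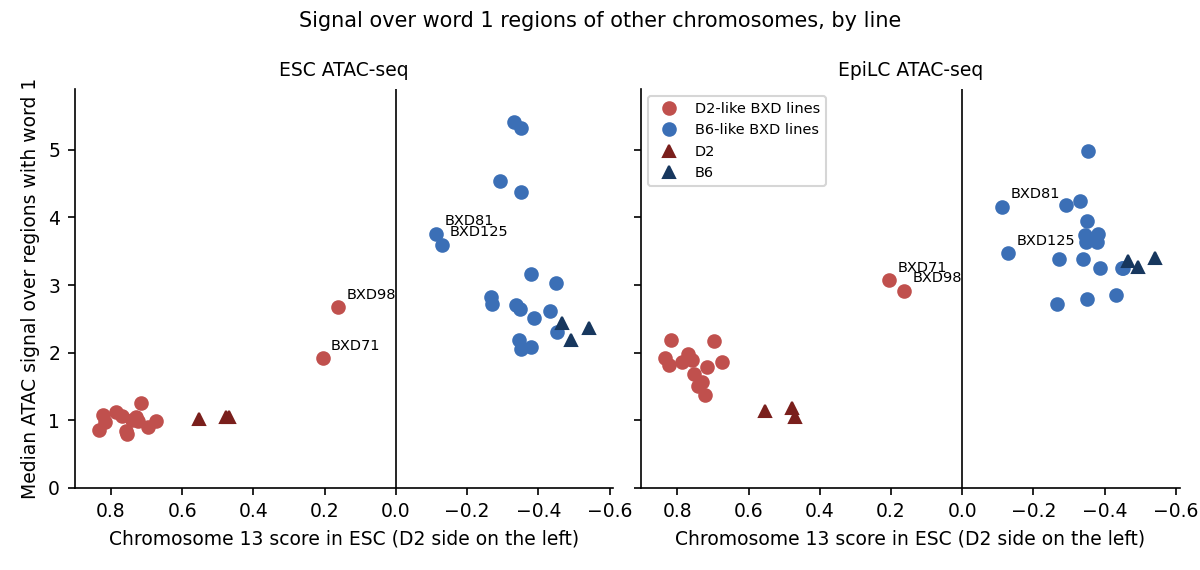
Median ATAC signal over regions with word 1 on other chromosomes (y axis) against the chromosome 13 score from ESCs (x axis, D2 side on the left), 1 point per line, in ESCs (left) and EpiLCs (right). In ESCs 14 of 15 D2-like lines lie below every B6-like line, and the lines near a score of 0 (BXD98, BXD71, BXD125, BXD81) are named. Word 1 was chosen from ESC regions that were lower in D2-like lines, so the ESC split is a description.

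BXD98 and BXD71 stood apart from the other D2-like lines at the regions that closed. With the 4 lines near the threshold left out, 1326 ESC regions were lower beyond 2-fold. On a scale from -0.5 (mean of the other B6-like lines) to 0.5 (mean of the other D2-like lines) BXD98 had a median position of -0.448 and was on the D2-like side at 176 of the 1326 regions (13.3%). BXD71 had a median of -0.0101 and was on the D2-like side at 647 (48.8%). The other D2-like lines had medians from 0.302 to 0.652, and the B6-like lines that were kept from -0.770 to -0.316. The regions and the scale were set on these kept lines, so the separation between them was fixed in advance. BXD125 and BXD81, left out like BXD98 and BXD71, had medians of -0.397 and -0.509. At the 467 EpiLC regions found in the same way BXD98 was at -0.546 and BXD71 at -0.0398.

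A second word, ACAGCTTCTGGGAA on either strand (TTCCCAGAAGCTGT on the other), had the largest excess among EpiLC regions that fell without word 1. It was present in 65 of the 1022 ESC regions that fell beyond 2-fold (6.36%, 57 of them without word 1) and in 0.469% of all. Of the 502 ESC regions with it, 65 fell beyond 2-fold, 233 by less, 2 rose and 202 were not called, with a median log2 difference of -0.59. In these regions BXD98 had a median signal of 4.28 and BXD71 of 3.34, within the B6-like range of 2.18 to 4.48, whereas BXD125 was at 2.18 and BXD81 at 2.44, the median over D2-like lines being 2.14. The groups of lines thus overlapped more than for word 1, with 8 of 15 D2-like lines below every B6-like line. The second word too was chosen from regions that fell between these groups, so its values are a description. Of the 915 EpiLC regions with the second word 20 fell beyond 2-fold (2.19%), 286 fell by less and 605 were not called. There 1 rose beyond 2-fold and 3 by less, and the median log2 difference was -0.32.

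The parental strains and the hybrid had the same direction at these regions. At the 1022 ESC regions that fell beyond 2-fold D2 was below B6 at 939 (91.9%), with a median log2 difference of -1.14, against 50.6% of all regions, and at the 305 EpiLC regions at 300 (98.4%), with -1.87, against 54.5%. In a separate log2 table with the hybrids, the 1084 regions with word 1 had medians of 0.127, 0.189 and 0.214 in the F1 lines, 0.190, 0.213 and 0.222 in the D2 lines and 1.20, 1.31 and 1.36 in the B6 lines. The F1 level was therefore close to D2 and not midway. Where the parents differed by more than 2-fold at these regions, the F1 mean lay below the midpoint at 409 of 469 (87.2%). Among all regions where the parents differed by that much it did so at 3468 of 9146 (37.9%). There D2 was the lower parent at some regions and the higher at others, so the 2 shares are not directly comparable.

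TRIM28 binding in parental ESCs was higher in D2 at the regions that closed in D2-like lines. TRIM28 peaks overlapped 897 of the 1022 regions (87.8%), against 52.4% of all regions, and the median log2 difference, D2 minus B6, was 0.99 at the 880 peaks involved, against 0.09 over all. Median TRIM28 signal there was 9.50, 9.87 and 12.2 in the D2 lines and 4.995, 5.28 and 5.38 in the B6 lines, with no overlap. At the 53 peaks over regions that rose beyond 2-fold the median was -0.41. P300, an acetyltransferase of active enhancers, and POU5F1, a core pluripotency factor, overlapped 4.012% and 3.33% of the 1022 regions, against 36.4% and 34.01% of all. The ChIP libraries are of parental lines, where the whole genome differs, and no BXD line has one.

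The closed regions of the 2 states overlapped in part. Of the 1022 ESC regions 553 had a matching EpiLC region, and 473 of these (85.5%) were called lower there, against 2.7% of all EpiLC regions, 245 of them beyond 2-fold. Of the 305 EpiLC regions 260 had a match in ESCs, and 257 (98.8%) were called lower, against 5.77% of all ESC regions. On every chromosome tested some regions fell beyond 2-fold in ESCs, from 0.536% on chromosome 19 and 0.549% on chromosome 11 to 1.64% on chromosome 3 and, with 2 of 54 regions, 3.70% on the Y chromosome.

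Beyond 2-fold, regions that opened in D2-like lines were fewer than those that closed, and none of them carried word 1. Of the 10 with the largest rise, 5 in ESCs and 8 in EpiLCs lay on chromosome 2. The largest ESC rise, nearest to the start of 1810024B03Rik at chr2:127182099-127183813, was at 2.22, 19.7 and 25.1 in D2-like against 0.829, 2.10 and 20.6 in B6-like ESCs. Its log2 difference of 2.14 became 0.39 with local haplotype as a covariate (limma adjusted p = 0.125), and that of the matching EpiLC region, 2.24, turned to -0.40 (limma adjusted p = 0.431). In all 3 of 10 in ESCs and 5 of 10 in EpiLCs lost the call with that covariate. A region within Celf2, an RNA-binding protein gene, kept it, at 0.121, 3.56 and 4.10 in D2-like and 0.148, 0.345 and 1.53 in B6-like ESCs, where 11 of 15 D2-like lines lay above every B6-like line. Both parents were low there (0.146, 0.444 and 0.350 in D2 and 0.558, 0.268 and 0.419 in B6).

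RNA changed at a smaller share of genes in ESCs than in EpiLCs. In ESCs 659 of 12170 genes on other chromosomes (5.41%) were called, 383 higher (3.15%) and 276 lower (2.27%) in D2-like lines, of which 25 (0.205%) rose and 26 (0.214%) fell beyond 2-fold. In EpiLCs 2130 of 12202 genes (17.5%) were called, 1197 higher (9.81%) and 933 lower (7.65%), with 37 (0.303%) and 53 (0.434%) beyond 2-fold. After median-ratio scaling the split was 275 higher and 315 lower in ESCs, and 853 higher and 1058 lower in EpiLCs, so the direction of the larger share depended on scaling. Without BXD86 the ESC count was 439. The EpiLC count rested strongly on single lines, at 997 without BXD45, 1186 without BXD64, 1222 without BXD86, 1237 without BXD161, 1261 without BXD55, 1288 without BXD48, 1304 without BXD95, 1377 without BXD69 and 1378 without BXD71, and at 3394 without BXD65, 3968 without BXD49 and 4241 without BXD81. The 37 genes higher beyond 2-fold were 23 without BXD86 and 24 without BXD45.

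Obox6, of a homeobox family known from oocytes and early embryos, fell the most in D2-like ESCs. It had 0, 0.894 and 74.9 in D2-like lines, against 29.9, 56.5 and 112.3 in B6-like lines. The value of 74.9 belonged to BXD98. BXD71 was at 10.6, and every D2-like line but BXD98 lay below every B6-like line. The log2 difference was -4.21 ± 0.43 (SE, n = 15 and 18, limma adjusted p = 3.05e-08), and -4.16 with local haplotype as a covariate. The D2 lines had 4.91, 2.86 and 4.88 and the B6 lines 26.998, 31.6 and 35.8. In a separate set of normalized values that holds the hybrids, the F1 lines had 3.31, 2.68 and 3.25. An ATAC region that fell beyond 2-fold had its centre 76 bases from the annotated start of Obox6 on chromosome 7.

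Among the other genes that fell in D2-like ESCs, Cdhr1, a photoreceptor cadherin, had 0.976, 1.74 and 15.1 in D2-like against 4.77, 8.79 and 20.1 in B6-like lines, a log2 difference of -1.60 ± 0.22 (SE, limma adjusted p = 1.71e-05). BXD98 was the D2-like line at 15.1, and the other 14 lay below every B6-like line. Htr5a, a serotonin receptor gene, fell by 1.51 on the log2 scale, with BXD98 again the highest D2-like line at 3.95, and A2m, the protease inhibitor alpha-2-macroglobulin, by 1.72. Dnmt3a, a de novo DNA methyltransferase, had 22.8, 30.8 and 98.5 in D2-like and 31.1, 69.5 and 128 in B6-like lines, a log2 difference of -1.04, with 8 of 15 D2-like lines below every B6-like line and BXD98 the highest. Trim43a fell by 2.00, but is of a family of close copies, and without the lines with a chromosome gain it was at -1.13 and not called (limma adjusted p = 0.0502). Slc1a1, a glutamate transporter, fell by 1.31 and lost its call there too (adjusted p = 0.0817, limma), and Cnga3 with local haplotype as a covariate (limma adjusted p = 0.390). Clca3b, Nlrp4c and Acoxl fell by 1.33, 1.28 and 1.62. The difference of Acoxl was -0.57 with local haplotype as a covariate, and the parents differed the other way (4.37, 2.79 and 4.007 in D2 and 0.420, 0.740 and 0.540 in B6). That of Nlrp4c was -0.82 without the lines with a chromosome gain. Gm21962 and 4933427J07Rik fell by 1.81 and 1.61, and both lost the call in several alternative fits (highest limma adjusted p = 0.115 and 0.0922).

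Cd59a, a membrane regulator that blocks the last step of complement, rose in D2-like lines of both states. In ESCs it had 2.24, 4.54 and 8.79 in D2-like and 0.518, 0.936 and 1.37 in B6-like lines, with no overlap and a log2 difference of 1.73 ± 0.13 (SE, limma adjusted p = 1.52e-11). In EpiLCs it had 0.791, 2.79 and 7.10 in D2-like and 0.271, 0.394 and 0.903 in B6-like lines, a difference of 1.44. The lowest D2-like line was BXD98 in both states, at 2.24 and 0.791, whereas BXD71 was at 8.69 and 4.80. The F1 ESCs were at 2.05, 2.10 and 2.04 in the separate set with the hybrids. In the set used for the BXD lines B6 was at 0.868, 1.30 and 0.790 and D2 at 8.59, 7.54 and 8.25. Read across the 2 sets, whose scaling was not compared, F1 was nearer to B6 than to D2.

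Aass, an enzyme of lysine breakdown, also rose in both states. In EpiLCs it had 2.16, 26.1 and 187 in D2-like and 0.542, 1.80 and 6.06 in B6-like lines, a log2 difference of 3.26 ± 0.37 (SE, limma adjusted p = 3.26e-07), and in ESCs 1.74, 18.4 and 69.9 in D2-like and 1.27, 3.67 and 9.69 in B6-like lines, a difference of 2.05. The line at the bottom of the D2-like range was BXD71 in both states, at 1.74 and 2.16, while BXD98 was at 18.4 and 9.58. BXD71 thus lay among the D2-like lines for Cd59a and among the B6-like lines for Aass. Of the 24 genes with the largest changes on other chromosomes BXD71 lay on the D2-like side at 10 and BXD98 at 11 in ESCs, and at 16 and 8 in EpiLCs. The B6-like lines near the threshold, BXD125 and BXD81, lay on that side at 8 and 3 in ESCs and at 11 and 15 in EpiLCs. For Aass in ESCs F1 was at 2.30, 1.66 and 2.87 in the separate set with the hybrids. D2 was at 25.1, 48.5 and 35.6 and B6 at 0.728, 0.694 and 0.756 in the set used for the BXD lines.

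**Figure D4:**
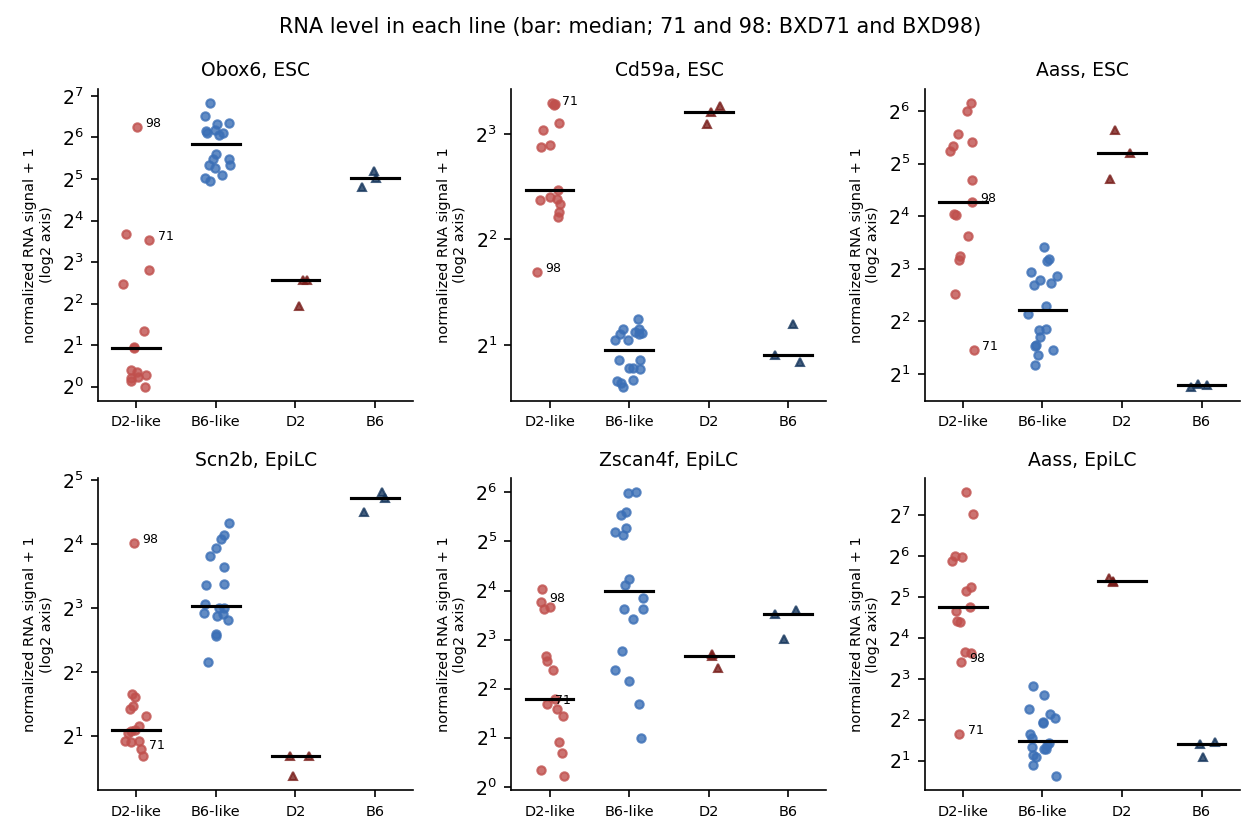
Normalized RNA signal plus 1 (y axis, log2 axis) of Obox6, Cd59a and Aass in ESCs and of Scn2b, Zscan4f and Aass in EpiLCs, 1 point per line, for D2-like lines, B6-like lines and the D2 and B6 parents; bars are medians. BXD98 lies with the B6-like lines for Obox6 (74.9) and Scn2b (15.2), and BXD71 for Aass (1.74 and 2.16).

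Among the other genes that rose in D2-like ESCs, H2-Eb1, a chain of MHC class II, had 12.4, 50.6 and 96.1 in D2-like against 2.80, 14.7 and 35.8 in B6-like lines, a log2 difference of 1.58, with 9 of 15 D2-like lines above every B6-like line. Cd3d and Cd3g, neighbouring genes for subunits of the T cell receptor complex, rose by 1.60 and 1.46, and Cd3g lost its call with local haplotype as a covariate (limma adjusted p = 0.0505). St8sia1, a ganglioside sialyltransferase, rose by 1.30, Ido2, of tryptophan breakdown, by 1.21 and Adam32 by 1.32. Gm5566 rose by 1.48. Otx2, a homeobox factor of the formative epiblast, rose by 1.35, with 3.31, 9.48 and 35.9 in D2-like and 0.0860, 3.32 and 17.8 in B6-like ESCs. Its call was lost without the lines with a chromosome gain (limma adjusted p = 0.0957), as was that of Drp2 (difference 1.33, limma adjusted p = 0.0637). AA467197 had the largest difference, 3.46, but lies in the unbalanced part of chromosome 2; with local haplotype as a covariate it was 1.67 and still called, and the parents differed the other way (0.4999, 0.813 and 1.43 in D2 and 12.3, 9.55 and 5.97 in B6).

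In D2-like EpiLCs Scn2b, an auxiliary subunit of sodium channels, fell most clearly. It had 0.619, 1.14 and 15.2 in D2-like against 3.45, 7.23 and 19.202 in B6-like lines, and BXD98 was again the exception at 15.2. The log2 difference was -1.92 ± 0.24 (SE, limma adjusted p = 1.94e-06), and the parents were at 0.298, 0.615 and 0.614 in D2 and 25.5, 21.7 and 27.1 in B6. Fbn2, a fibrillin of the extracellular matrix, fell by 1.41 and Igf2, an imprinted growth factor, by 1.24. Of the genes that rose Cbr3, a carbonyl reductase, had 109, 262 and 527 in D2-like and 17.7, 90.9 and 332 in B6-like EpiLCs, a log2 difference of 1.45. Fmo1, a flavin monooxygenase, and Gpx2, a glutathione peroxidase, rose by 1.43 and 1.41, and Lrrc2 by 1.41. Gm37917 and Gm29562, both on chromosome 9, rose by 1.54 and 1.43, and 2610037D02Rik, Platr5 and Gm38246 by 1.76, 1.38 and 1.37, of which Gm38246 lost its call with local haplotype as a covariate. Gm26905, Gm20765, Gm21312 and Gm1141 fell by 1.65, 1.64, 1.42 and 1.37, and 4933427J07Rik and Gm21962 by 2.04 and 2.03. Gm13443, 1700030C10Rik and Gm26818 were also called (2.43, -1.80 and -1.44), each with lines near 0 in both groups. With local haplotype as a covariate the difference of 1700030C10Rik, on chromosome 12, was -0.24 and not called (limma adjusted p = 0.207), and without the lines with a chromosome gain Gm26818 was not called (limma adjusted p = 0.0727). When 1 line was left out Platr5, Gm38246, 1700030C10Rik, Gm26818 and Gm13443 each lost the call, for 8, 16, 17, 10 and 2 of the lines.

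All 7 tested genes of the 2-cell-like list fell in D2-like EpiLCs, against 7.65% of all genes: Zscan4b, Zscan4c, Zscan4d, Zscan4e, Zscan4f, Usp17la and Arg2. Zscan4 genes encode zinc finger proteins that mark a transient state of ESCs resembling the embryo after its first cleavage. Zscan4c fell by 1.48. Zscan4f had 0.165, 2.45 and 15.4 in D2-like and 1.00, 14.8 and 62.95 in B6-like EpiLCs, a log2 difference of -1.88 ± 0.47 (SE, limma adjusted p = 0.0116), and only 4 of 15 D2-like lines lay below every B6-like line. The summed signal of the list was 1.21 to 31.3 in D2-like and 2.92 to 133.02 in B6-like lines. The Zscan4 members are close copies that can share reads, so they are not 7 separate observations. The median log2 difference of the list was -1.31 in EpiLCs, against 0.00 over all genes tested. In ESCs 0 of 6 tested members were called by limma, although 5 had an unadjusted p under 0.05, all 6 were below 0 and the median was -0.77. Arg2 was lost without BXD48, BXD86, BXD69 or BXD45 (highest limma adjusted p = 0.0567).

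Pluripotency lists had called members in both states. Of 15 core pluripotency genes 5 rose in D2-like EpiLCs (9.81% of all genes rose) and 0 of 15 were called in ESCs, where 2 had an unadjusted p under 0.05 by limma. Pou5f1, the core factor itself, had 885, 1293 and 2025 in D2-like and 355, 765 and 1454 in B6-like EpiLCs, a log2 difference of 0.75 ± 0.17 (SE, limma adjusted p = 0.00600). Tdgf1, a co-receptor of Nodal, Dppa5a, Dppa4 and Dppa2 rose by 1.24, 1.05, 0.56 and 0.39, though each of these lost its call when 1 line was left out (any of 14 lines for Tdgf1, 6 for Dppa5a, 8 for Dppa4 and 16 for Dppa2, BXD45 and BXD86 among them for all). Pou5f1 kept its call in every alternative run, with 5 of 15 D2-like lines above every B6-like line and BXD98 the lowest D2-like line. In ESCs, where 5.41% of all genes were called, 4 of 16 formative genes were: Etv4 (1.07) and Otx2 rose and Dnmt3a and Sox3 (-0.70) fell. In EpiLCs, where 17.5% of all genes were called, 0 of 17 formative genes were called by limma and 0 had an unadjusted p under 0.05. Of 20 naive genes in ESCs Nr5a2 (0.47) and Spic (0.57) rose, and of 17 in EpiLCs Fgf4 (0.78) and Zfp42 (0.52) rose and Stat3 (-0.46) and Socs3 (-0.43) fell. Spic lost its call without BXD74 or BXD86, and Zfp42, Stat3 and Socs3 without any 1 of 18 to 20 lines. Stat3 and Socs3 were also not called with local haplotype as a covariate (limma adjusted p = 0.0584 and 0.0898).

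Lists of chromatin regulators and imprinted genes had called members as well. In ESCs Atrx, 1 of 26 genes of KRAB silencing and H3K9 methylation, rose by 0.50 but not without the lines with a chromosome gain (limma adjusted p = 0.0662), nor without BXD74 or BXD86, and in EpiLCs 4 of 26, Atf7ip2, Morc3, Smarcad1 and Zfp57, rose by 0.28 to 0.48, against 9.81% of all genes, Atf7ip2 not with local haplotype as a covariate (limma adjusted p = 0.191). Morc3, Zfp57 and Atf7ip2 lost the call when any 1 of 6, 11 and 19 lines was left out. Gadd45a, of the DNA methylation list, rose by 0.57, but not when any 1 of 5 lines was left out. Of 28 imprinted genes in EpiLCs Igf2, Dlk1 and Nnat fell, by 1.24, 0.64 and 0.70, against 7.65% of all genes, and of 27 in ESCs Ascl2, Cdkn1c and Nnat fell, by 0.53, 0.67 and 1.11, against 2.27%. With local haplotype as a covariate Nnat was not called in EpiLCs or ESCs (limma adjusted p = 0.165 and 0.0577), nor was Ascl2 (limma adjusted p = 0.0555), and Cdkn1c was not without the lines with a chromosome gain (limma adjusted p = 0.0502). The EpiLC call of Nnat was lost without any 1 of 19 lines and the ESC call of Ascl2 without any 1 of 22.

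Some markers of other cell types were called. In ESCs, where 3.15% of all genes rose, Gata3 of 9 trophectoderm markers rose by 1.17 and Lama1 of 7 primitive endoderm markers by 0.71. These were single members, and neither list rose as a whole. The median log2 difference was -0.007 for the trophectoderm list, with 5 members below 0. It was -0.009 for the primitive endoderm list, with 4 members below 0. The ESC difference of Lama1 was 0.42 with local haplotype as a covariate (limma adjusted p = 0.284) and not called without the lines with a chromosome gain either (limma adjusted p = 0.0906). In EpiLCs, where 7.65% of all genes fell, Lama1, Col4a1 and Col4a2 of 8 primitive endoderm markers fell (differences of -1.02, -0.93 and -0.92), Lama1 not with local haplotype as a covariate (limma adjusted p = 0.111), with summed list signal of 105 to 256 in D2-like and 112.5 to 413 in B6-like lines. Of 6 neuroectoderm markers Nes and Ncam1 fell (-0.82 and -0.72), with sums of 57.5 to 215 in D2-like and 56.6 to 328 in B6-like lines. Of 12 feeder fibroblast markers 0 were called in EpiLCs by limma, 4 having an unadjusted p under 0.05, with sums of 129 to 344 in D2-like and 129 to 1073 in B6-like lines, and in ESCs, where 0 of 14 were called and 0 had an unadjusted p under 0.05, sums ran from 890.0 to 3948 in D2-like and from 792 to 7154 in B6-like lines. Lama1 and Nes lost their EpiLC calls without any 1 of 10 and 15 lines. The part of such cells in the results was not tested, and in bulk samples fewer cells of a type and less RNA per cell cannot be told apart.

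The distance from each gene start to the regions that closed was also described. Of the 276 genes lower in D2-like ESCs, 27 (9.78%) had a start within 50 kb of the centre of a region that fell beyond 2-fold, against 5 of the 383 higher genes (1.31%) and 1.64% of all genes tested. Within 20 kb the numbers were 19 (6.88%), 0 and 0.641%. In EpiLCs 17 of 933 lower genes (1.82%) had one within 50 kb, against 0.434% of all. Besides Obox6, A2m started 1925 bases from such a centre and 1700019A02Rik, which fell by 0.97, 170 bases from one. Gm10576 and Raver2, an RNA-binding protein gene, fell by 0.95 and 1.05 and started 432.5 and 14152.5 bases from the centre of the chromosome 4 region whose stretch is printed last above. That region was the closest one with word 1 to the start of a gene that fell. The nearer regions at Obox6 and 1700019A02Rik therefore did not carry word 1. These distances are a description, with no test.

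The difference between the groups itself differed between states, by limma on the EpiLC minus ESC value of each line, at 357 of 11263 genes (3.17%) and 2273 of 56559 regions (4.02%), and the genes called in each state overlapped in part. Of the 276 genes lower in ESCs 250 were tested in EpiLCs, and 76 of them (30.4%) were also lower there, against 7.65% of all genes, while 3 were called higher; of the 933 lower in EpiLCs 818 were tested in ESCs, and those 76 were 9.29% of them, against 2.27%. For higher genes 102 were shared, 31.3% of the 326 ESC genes tested in EpiLCs and 9.07% of the 1124 EpiLC genes tested in ESCs, against 9.81% and 3.15% of all genes, and 12 genes higher in ESCs were called lower in EpiLCs. The parents had the direction of the BXD groups at 233 of 383 genes higher in ESCs (60.8%) and at 24 of the 25 beyond 2-fold, and at 173 of 276 lower genes (62.7%) and 17 of the 26 beyond 2-fold, against 46.01% and 53.99% of all genes with D2 above and below B6.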

How the data were processed

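ATAC-seq and ChIP-seq tables hold a signal per region and RNA-seq tables a signal per gene, each scaled per library by the authors before they deposited them; the ATAC table with F1 lines was deposited as log2 values. Tools listed per the submitters' processing notes, without roles, are MACS 1.4.2, HISAT2 2.0.5 and Bowtie 1.0.0, with the mm10 build. The sources used here do not say how multiply mapping reads, counting and strand were handled. Values of the ATAC and TRIM28 tables were, at 100% per library, whole multiples of 1 step within 0.01, so read counts could be recovered from the signal the authors deposited, and they cover counting error only.

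Members and lists were chosen with earlier results of these data known. D2-like and B6-like lines were compared with limma 3.58.1 (R 4.3.3; lmFit, eBayes with trend and robust) on log2(value + 0.1) for ATAC and log2(value + 1) for RNA, BXD libraries only. That scale understates changes of low values. RNA genes needed a mean of at least 0.5. Calls were at a Benjamini-Hochberg adjusted p under 0.05 over the whole table, counted outside chromosome 13. The change between states was tested on each line's EpiLC minus ESC value, over 59318 regions overlapping 1 to 1 by at least 50% of both. The text names, per state, the 12 largest called genes in each direction on other chromosomes, the 8 in the interval, the 10 regions, the 6 largest state differences and every called member of a list; genes near closed regions were chosen after their values were seen. Alternatives were another pseudocount, filter or scaling, edgeR 4.0.16 on recovered reads, leaving out lines, and covariates (local haplotype, the library run, Y-linked RNA). Local haplotype was the median parental position in the nearest 10 Mb bin of the feature's chromosome with at least 5 scored regions. It was taken from ATAC of the other state, or of EpiLCs for state differences. Gene positions came from GENCODE vM21, in which 68 genes per RNA table had no entry. Words compared 20 candidates each. No values were left without a sample (0 columns in 9 tables). Fits were tested on simulated data.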

Additional observations from a re-analysis of the deposited data

Results flagged for a closer look

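The D2-like minus B6-like difference itself differed between EpiLCs and ESCs at some features, by limma on each line's EpiLC minus ESC value (adjusted p under 0.05). This held for 357 of 11263 genes (3.17%), 174 with a larger and 183 with a smaller value in EpiLCs, and for 2273 of 56559 regions (4.02%), 1451 with a larger and 822 with a smaller value. The gene count rested on single lines, at 78 without BXD86, 91 without BXD55, 120 without BXD45, 128 without BXD161, between these without BXD95 or BXD69, 152 without BXD83, between 128 and 152 without BXD48, 162 without BXD64, 164 without BXD62, 171 without BXD74, 175 without BXD75, 180 without BXD84, 196 without BXD63, 208 without BXD71, 220 without BXD61, 224 without BXD87, 230 without BXD43, 562 without BXD65, 828 without BXD98, 1379 without BXD81 and 1387 without BXD49. The region count was 1503 without BXD45 and 3621 without BXD98. After median-ratio scaling the region split was 1948 against 642.

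Among genes the largest positive differences of differences, on the log2 scale, were 1.88 for A2m, 1.60 for Lrrc2, 1.54 for Cdhr1, 1.47 for Tdgf1, 1.46 for Cbr3 and 1.32 for Rbm44. A2m and Cdhr1 were lower in D2-like ESCs and low in both groups of EpiLCs, where A2m had 0.132 to 5.44 in D2-like and 0.361 to 3.37 in B6-like lines. The largest negative ones were -1.73 for Lama1, -1.71 for Nefm, -1.65 for Ak4, -1.63 for St8sia1, -1.59 for She and -1.55 for Peg10. Ak4, an adenylate kinase, had 208, 386 and 1085 in D2-like and 84.05, 164 and 425 in B6-like ESCs, against 9.15, 22.1 and 39.2 in D2-like and 16.5, 30.1 and 58.1 in B6-like EpiLCs. Tdgf1 lost its call when any 1 of 22 lines was left out, Cbr3 for 10 lines, and Tdgf1 also with another pseudocount (adjusted p = 0.051, limma). With local haplotype as a covariate Tdgf1 and Lama1 were not called (limma adjusted p = 0.05885 and 0.0546).

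Among regions the largest positive values were 1.82 at chr8:80551918-80553354, 1.63 at chr6:53049189-53050140 in Jazf1, 1.56 at chr4:106176708-106177690, 1.43 at chr1:46707277-46708366 in Dnah7c, 1.33 at chr4:65393693-65394473 in Astn2 and 1.33 at chr6:60619095-60620226. At the first of these the signal was 1.32, 2.31 and 10.5 in D2-like and 6.05, 10.4 and 17.4 in B6-like ESCs, against 1.14, 1.95 and 3.56 in D2-like and 1.64, 2.24 and 3.12 in B6-like EpiLCs. The largest negative values were -1.35 at chr1:39325640-39326246 in Npas2, -1.31 at chr18:69430117-69430981 in Tcf4, -1.17 at chr8:35599422-35600326 in Mfhas1, -1.16 at chr14:9695087-9696437 in Fhit, -1.14 at chr15:25515759-25516577 and -1.14 at chr18:84418793-84419507 in Zfp407. The regions in Fhit and Zfp407 lost the call in at least 1 alternative fit (highest limma adjusted p = 0.0874 and 0.0895). Groups of 15 and 18 lines, or of 3 parental lines, were not tested for single outlying samples.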

How the results depend on the processing

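No paired analysis was possible because each line has 1 library per assay and state, and the D2-like and B6-like groups are different lines that share no replicate number.

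Counts as first reported stand above, and the cause was not tested where one moved, apart from fewer regions tested at a mean of at least 5. Features higher and lower beyond 2-fold are given here as percent of those tested on other chromosomes. With a pseudocount of 1 these were 0.0243% and 0.405% of ESC regions and 0.0104% and 0.0668% of EpiLC regions. At a mean of at least 5 they were 0.0441% and 0.216%, and 0.0168% and 0.0694%, with 8074 and 2489 regions called, 127 in the EpiLC interval and 1051 regions with a state difference. Without the 4 lines near a score of 0 they were 0.131% higher for ESC regions, 0.0542% and 0.487% for EpiLC regions, 0.32% and 0.394% for ESC genes and 0.746% and 0.836% for EpiLC genes, with 9771 EpiLC regions and 3773 EpiLC genes called and state differences at 1624 genes and 4326 regions. With a pseudocount of 0.1 they were 0.37% and 0.46% of ESC genes and 0.639% and 1.17% of EpiLC genes. With the score as a continuous term 1049 ESC genes were called, 0.467% of EpiLC genes were higher beyond 2-fold, and state differences were 1156 genes and 4247 regions. Without BXD71 and BXD98, chosen after seeing the data, 0.337% of ESC genes were lower and 0.533% of EpiLC genes higher beyond 2-fold, and state differences were 545 genes and 3829 regions. Without lines with a chromosome gain 0.516% of EpiLC genes were higher beyond 2-fold and 1297 regions had a state difference. Library run as a covariate gave 3528 EpiLC regions, and local haplotype 196 state genes.

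Leaving out 1 line gave 13427 to 19143 regions in ESCs and 4491 to 7395 in EpiLCs, 439 to 965 ESC genes, 997 to 4241 EpiLC genes (0.188% to 0.426% higher beyond 2-fold), and 78 to 1387 genes and 1503 to 3621 regions with a state difference. With local haplotype as a covariate 29 of 150 named features lost the call and 1 reversed, the EpiLC region at chr2:127182021-127183742, at -0.40. Calls were lost by 21 of 150 without lines with a gain, 11 of 182 with Y-linked RNA as a covariate, 7 of 40 with edgeR and 6 of 20 with library run. RNA depth is unknown.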
